A study of Drosophila melanogaster with 30 samples.

Results

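Amylases cut starch and glycogen into short sugars, and maltases split maltose and related sugars into glucose. The genes described here are the 2 copies of α-amylase, Amy-p (amylase proximal) and Amy-d (amylase distal), and 7 maltase genes of the Mal-A cluster, Mal-A1, Mal-A2, Mal-A3, Mal-A4, Mal-A6, Mal-A7 and Mal-A8. They were chosen by name as digestive enzymes and matched to FlyBase identifiers, which gave 9 genes of the 17807 in the count tables. The flies were adult females of Canton S, a wild-type laboratory strain of Drosophila melanogaster. They were taken as pools of 6 whole flies after cooling to 4°C or 10°C, after warming to 34°C or 37°C, or as controls handled alike that stayed at 25°C. The temperature changed by 0.25°C per minute. The sample records give a hold of 5 min at 34°C and 37°C and of 0 min at 4°C and 10°C, while the study's methods place the hold at 4°C and 37°C. Each temperature had 3 pools (replicates 1 to 3), and each pool gave 1 library depleted of ribosomal RNA (rRNA−) and 1 library selected for polyadenylated RNA (polyA+), 30 libraries in all. Libraries of both types were matched to a pool by temperature and replicate number. The rRNA− libraries were made from 0.3 µg of RNA and read on a HiSeq, and the polyA+ libraries were made from 0.8 µg and read on a NovaSeq, so library type, RNA amount and sequencer cannot be told apart. In whole flies, fewer gut cells and less RNA per gut cell cannot be told apart either.

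In the fly, amylase and most maltases are made by enterocytes of the midgut, secreted into the gut lumen or held at the cell surface, and their output follows feeding. Sugar in the food lowers amylase expression, and the sugar sensor Mondo with its partner bigmax and targets such as sug, together with the Activin ligand daw, are known to act on digestive enzyme genes.

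All 9 genes lie on chromosome arm 2R of the dm6 assembly as annotated by Ensembl. The 7 maltase genes stand within 24298 bp, from 8449664 to 8473961. In order along the arm these are Mal-A1 (FBgn0002570, 8449664 to 8451904, minus strand), Mal-A2 (FBgn0002569, 8453627 to 8455782, plus), Mal-A3 (FBgn0002571, 8455909 to 8457892, minus), Mal-A4 (FBgn0033294, 8458815 to 8460884, plus), Mal-A6 (FBgn0050360, 8465158 to 8467595, plus), Mal-A7 (FBgn0033296, 8468646 to 8471663, minus) and Mal-A8 (FBgn0033297, 8471954 to 8473961, plus). They have 3 to 5 exon blocks each. Amy-p (FBgn0000079, 17118636 to 17120303, minus) and Amy-d (FBgn0000078, 17124764 to 17126369, plus) have a single exon each, point away from each other and are 4460 bp apart. Amy-p and Amy-d are near-identical copies, so the split of reads between them is uncertain and their counts were also summed. Mal-A1 overlaps Cyp4e1 by 82 bases and Mal-A8 overlaps mtt by 6 bases, both on the opposite strand. The libraries were stranded, but whether the counting used strand is not given in the sources used here.

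Levels are CPM, counts scaled to a common library size, from the equalized counts, for which the study removed ribosomal reads, trimmed the polyA+ reads to 85 bp and reduced them to the read number of the rRNA− partner library. TMM scaling was applied within a library type. Equalized totals were 2067003 to 5541348 counts in the 15 rRNA− libraries and 2188773 to 5925256 in the 15 polyA+ libraries. The heat shock gene Hsp68, a check of the exposure, had 20621 to 33856 counts in the 6 libraries at 37°C, against 49 to 114 counts in the 6 libraries at 25°C. A group of 5 polyA+ libraries stood apart: replicate 2 at 10°C, replicates 2 and 3 at 34°C and replicates 1 and 2 at 37°C had 0.00173% to 0.00476% of their full counts in histone genes, against 0.0144% to 0.0240% in the other 10 polyA+ libraries. These 5 libraries carry much of what follows, so the polyA+ results of the 9 genes against 25°C are also given without them. Calls required a fold change of at least 2 and an adjusted p (Benjamini-Hochberg, edgeR's quasi-likelihood test) under 0.05.

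In rRNA− libraries both amylase copies had higher levels at 10°C, 34°C and 37°C than at 25°C in every library, but the only call was that of Amy-d at 37°C. Summed Amy had 217, 106 and 46.8 CPM at 4°C, 362, 193 and 235 CPM at 10°C, 243, 366 and 338 CPM at 34°C, and 303, 234 and 484 CPM at 37°C, against 159, 74.8 and 147 CPM at 25°C. Every library at 10°C, 34°C and 37°C was above all 3 libraries at 25°C, while the libraries at 4°C lay on both sides of them. The log2 fold change of the sum against 25°C was −0.04 (SE 0.50, adjusted p = 1) at 4°C, 1.05 (SE 0.50, adjusted p = 0.226) at 10°C, 1.32 (SE 0.50, adjusted p = 0.172) at 34°C and 1.42 (SE 0.51, adjusted p = 0.153) at 37°C, so the sum was not called at any temperature.

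Amy-d rose at 37°C, with 53.2, 42.1 and 74.2 CPM at 37°C, against 20.1, 9.40 and 19.2 CPM at 25°C (log2 fold change 1.80, SE 0.45, adjusted p = 0.0403). Amy-p, the copy with the higher count, had 250, 192 and 410 CPM at 37°C, against 139, 65.4 and 128 CPM at 25°C (log2 fold change 1.36, SE 0.51, adjusted p = 0.179). All 3 libraries at 37°C were above all 3 at 25°C for both copies. The call of Amy-d was lost whichever single library at 37°C or 25°C was left out (log2 fold change 1.52 to 1.99, adjusted p = 0.0606 to 0.152), and the difference in response between the copies was not tested.

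**Figure D1:**
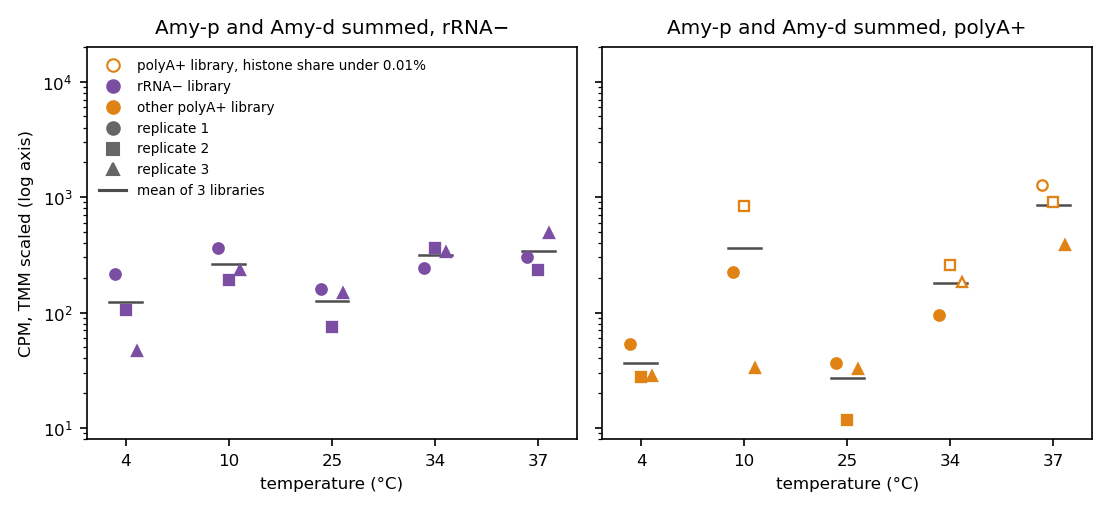
Summed counts of Amy-p and Amy-d in CPM (log axis) against temperature in °C, rRNA− libraries on the left and polyA+ libraries on the right, with 1 point per library, the symbol for the replicate, the bar for the mean of 3 libraries and open points for the 5 polyA+ libraries of low histone share. The rRNA− points lie between 46.8 and 484 CPM, while the polyA+ points lie between 11.7 and 1282 CPM with the highest at 10°C and 37°C among the open points.

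Of the 7 maltases, 3 had fitted log2 fold changes over 2 at 37°C in rRNA− libraries, and of these Mal-A3 was called. Mal-A3 rose at 37°C, with 9.61, 5.14 and 13.2 CPM, against 2.78, 0.783 and 1.70 CPM at 25°C (log2 fold change 2.39, SE 0.49, adjusted p = 0.0113). The 3 libraries at 37°C were all above the 3 at 25°C, on counts of 20 to 53 at 37°C and of 4 to 14 at 25°C. The call was lost without 37°C replicate 3 (log2 fold change 2.05, adjusted p = 0.0619), 25°C replicate 2 (2.03, adjusted p = 0.0604) or 25°C replicate 3 (2.37, adjusted p = 0.0604). Its neighbour Mal-A4 had 11.8, 3.60 and 10.2 CPM at 37°C, against 3.77, 0.783 and 1.21 CPM at 25°C (log2 fold change 2.12, SE 0.60, adjusted p = 0.0576). Here replicate 2 at 37°C fell just under replicate 1 at 25°C, so that the groups overlapped. Mal-A2 had 13.3, 6.42 and 18.0 CPM at 37°C, against 4.77, 0.979 and 2.43 CPM at 25°C, without overlap (log2 fold change 2.19, SE 0.77, adjusted p = 0.142).

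The other 4 maltases overlapped between 37°C and 25°C in rRNA− libraries. Mal-A1 had 76.2, 24.9 and 101 CPM at 37°C, against 92.2, 14.7 and 34.3 CPM at 25°C, and Mal-A7 had 7.39, 3.08 and 27.7 CPM at 37°C, against 20.5, 1.37 and 5.10 CPM at 25°C. In both genes replicate 1 at 25°C was above replicates 1 and 2 at 37°C. The log2 fold changes of Mal-A1, Mal-A6, Mal-A7 and Mal-A8 were 0.50 to 0.53 with standard errors of 0.85 to 1.36 and adjusted p of 0.811 to 0.895.

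Counted over the 9 genes in rRNA− libraries, 2 were called higher at 37°C (2.06% of the 9718 genes tested were), namely Amy-d and Mal-A3, and 0 lower (0.494%, or 2.55% in either direction). At 10°C and 34°C 0 were called, at a background of 0.875% higher and 1.23% lower (2.11% in either direction) at 10°C and of 0.679% higher and 0.144% lower (0.823% in either direction) at 34°C, although 3 genes each had an unadjusted p under 0.05, as did 2400 (10°C) and 2114 (34°C) of the 9718 genes. DESeq2's Wald test called 3 of them at 10°C (Amy-d, Mal-A2 and Mal-A3), 1 at 34°C (Amy-d) and 4 at 37°C (Amy-d, Mal-A2, Mal-A3 and Mal-A4), beside 317, 216 and 364 genes in all. At 4°C 0 were called (0.0103% higher and 0% lower among all genes), with 0 at an unadjusted p under 0.05 and 0 by DESeq2, which called 15 genes in all. The median log2 fold change of the 9 genes was 0.26 (4°C), 1.32 (10°C), 1.22 (34°C) and 1.36 (37°C), beside −0.01, 0.01, −0.06 and −0.05 over all genes tested. With 1 library left out, the highest medians came without 25°C replicate 1, at 1.21 (4°C), 2.00 (10°C), 1.48 (34°C) and 1.99 (37°C). The lowest were −0.81 at 4°C, on omitting 4°C replicate 1, 0.94 at 10°C and 0.84 at 34°C, on omitting 25°C replicate 2, and 1.00 at 37°C, on omitting 37°C replicate 3.

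Without overlap of the libraries, 3 of the 9 genes were higher at 10°C than at 25°C (Amy-p, Amy-d and Mal-A3, at a background of 12.3%), 4 at 34°C and 4 at 37°C (Amy-p, Amy-d, Mal-A2 and Mal-A3 both times, at 13.4% and 12.6%). None was at 4°C (3.97%), and 0 of the 9 were lower without overlap at any of the temperatures, where 4.86% (4°C), 18.4% (10°C), 14.5% (34°C) and 15.2% (37°C) of all genes were. The libraries at 10°C held 0 genes called against 4°C (0.0103%) and those at 37°C 0 against 34°C (0.175%), where 2 and 1 of the 9 had an unadjusted p under 0.05 (1543 and 1284 of all genes) and DESeq2 called 0 in both (104 and 54 of all genes). Mal-A3 at 37°C was the 1 gene with an unadjusted p under 0.05 against 34°C, with a log2 fold change of 1.08 (SE 0.46, adjusted p = 0.326).

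The polyA+ libraries showed larger differences and a wider spread. Summed Amy had 53.5, 27.8 and 28.0 CPM at 4°C, 225, 830 and 32.9 CPM at 10°C, 94.4, 259 and 182 CPM at 34°C, and 1282, 905 and 387 CPM at 37°C, against 36.4, 11.7 and 32.5 CPM at 25°C. All 3 libraries at 37°C and at 34°C were above those at 25°C, while at 10°C replicate 3 lay within them. The log2 fold change of the sum was 0.44 at 4°C (SE 0.83, adjusted p = 1), 3.76 at 10°C (SE 0.91, adjusted p = 0.739), 2.73 at 34°C (SE 0.87, adjusted p = 0.423) and 5.00 at 37°C (SE 0.97, adjusted p = 0.0200), and only the last was called.

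Mal-A4 spanned the widest range of the maltases. It had 1061, 570 and 14 counts in the polyA+ libraries at 37°C (286, 163 and 3.89 CPM), against 2, 0 and 2 counts at 25°C (0.424, 0 and 0.486 CPM). The fitted log2 fold change of 8.92 (SE 2.07, adjusted p = 0.0349) rests on these 4 counts at 25°C, and a count of 0 allows up to 3 by counting error alone. It had 2, 0 and 2 counts at 4°C, 7, 207 and 4 counts at 10°C and 4, 269 and 316 counts at 34°C. Mal-A3 followed it, with 199, 123 and 8.33 CPM at 37°C, against 0.636, 0.170 and 1.46 CPM at 25°C (log2 fold change 7.21, SE 1.76, adjusted p = 0.0399). The 3 libraries at 25°C held 10 counts of Mal-A3 in all. In both genes replicate 3 at 37°C was far below the other libraries at 37°C but above every library at 25°C.

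The other 5 maltases had smaller fitted log2 fold changes, of 4.08 to 5.84. Mal-A1 had 251, 225 and 37.2 CPM at 37°C, against 13.3, 1.36 and 3.89 CPM at 25°C (log2 fold change 4.79, SE 1.09, adjusted p = 0.0329). Mal-A6 had 137, 139 and 40.0 CPM at 37°C, against 9.74, 0.678 and 1.46 CPM at 25°C (log2 fold change 4.73, SE 1.01, adjusted p = 0.0278). For Mal-A2 the levels were 83.2, 51.5 and 7.22 CPM at 37°C, against 1.91, 0.509 and 0.728 CPM at 25°C (log2 fold change 5.47, SE 1.16, adjusted p = 0.0278). Mal-A7 had 77.5, 38.0 and 10.5 CPM at 37°C, against 1.91, 0 and 0.243 CPM at 25°C, and Mal-A8 had 23.5, 20.3 and 3.61 CPM at 37°C, against 2.33, 0.170 and 0.243 CPM at 25°C. For each of these 5 genes all libraries at 37°C were above all at 25°C, but Mal-A7 (adjusted p = 0.0733) and Mal-A8 (adjusted p = 0.0697) were not called. The summed counts at 25°C were 15 for Mal-A2, 10 for Mal-A7 and 13 for Mal-A8.

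**Figure D2:**
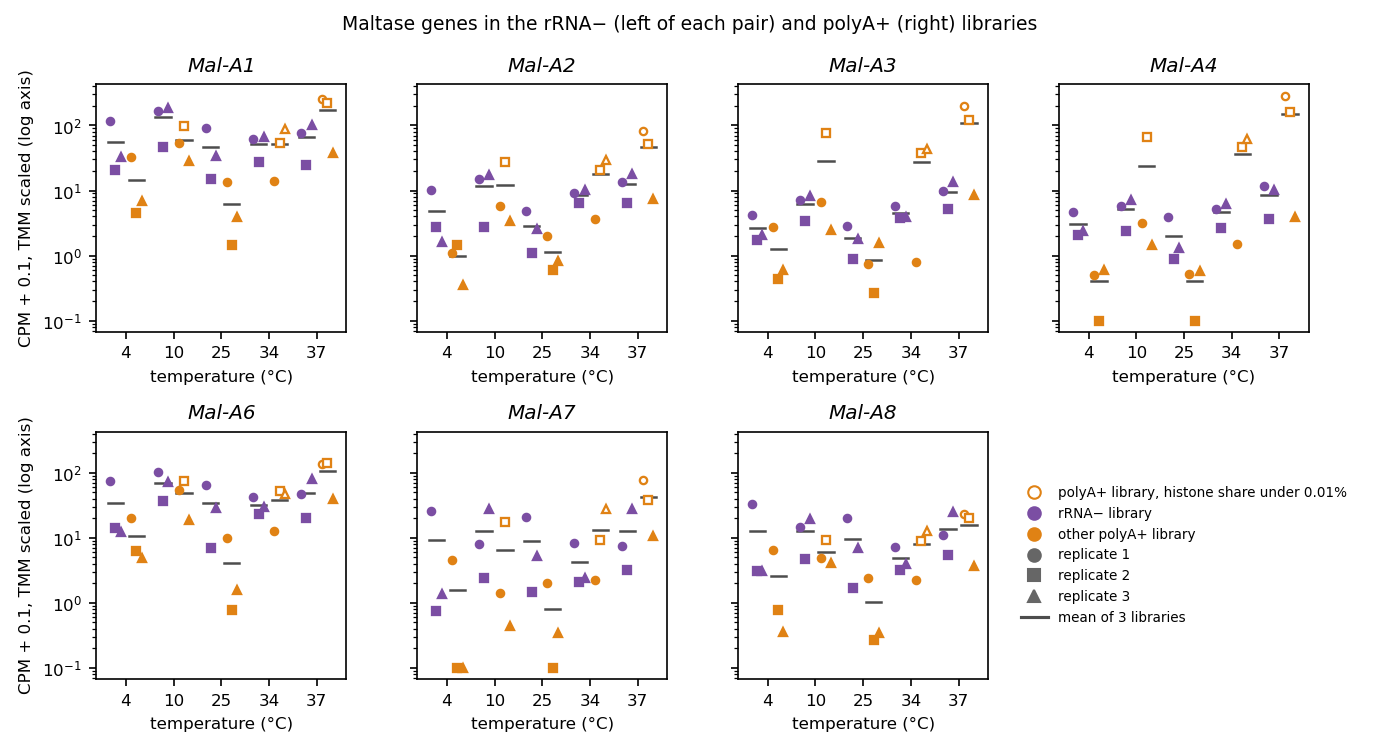
CPM plus 0.1 (log axis) of the 7 maltase genes against temperature in °C, with the rRNA− libraries left and the polyA+ libraries right at each temperature, 1 point per library, the symbol for the replicate, the bar for the mean of 3 libraries and open points for polyA+ libraries of low histone share. In Mal-A3 and Mal-A4 the open points, 37.2 CPM or more, are above every other point of both library types, the highest of which is 13.2 CPM.

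Of the 9 genes, 7 were called higher at 37°C in polyA+ libraries (3.76% of the 9257 genes tested were) and 0 lower (0.162%, or 3.92% in either direction). At 4°C, 10°C and 34°C 0 were called, beside 0% higher at 4°C and 10°C and 0.0864% at 34°C among all genes, and 0% lower at each of them. The unadjusted p was under 0.05 for 0 of the 9 genes at 4°C, 8 at 10°C and 9 at 34°C, and DESeq2 called 0, 7 and 5. Among all 9257 genes 58, 584 and 665 had an unadjusted p under 0.05 and DESeq2 called 3, 60 and 127. Without overlap of the libraries, 0 of 9 genes were higher than at 25°C at 4°C (2.01% of all genes), 7 at 10°C (3.18%), 7 at 34°C (8.18%) and 9 at 37°C (18.9%), and 0 of 9 were lower, where 2.88% (4°C), 4.87% (10°C), 6.73% (34°C) and 24.3% (37°C) of all genes were. Against 4°C, 0 of 9 were called at 10°C (0% of all genes), with 6 at an unadjusted p under 0.05 (470 of all genes) and 1 by DESeq2 (7 of all genes). Against 34°C, 0 were called at 37°C (0%), with 2 at an unadjusted p under 0.05 (660 of all genes) and 0 by DESeq2 (25 of all genes). The median log2 fold change against 25°C was 0.76 (4°C), 3.51 (10°C), 3.25 (34°C) and 5.28 (37°C), beside −0.01, 0.10, 0.02 and −0.18 over all genes tested. Omitting single libraries moved it to between −0.18 and 1.29 at 4°C (4°C replicates 1 and 2 omitted), 2.43 and 4.68 at 10°C (10°C replicate 2 and 25°C replicate 1), 2.77 and 5.08 at 34°C (25°C replicates 2 and 1), and 4.78 and 6.20 at 37°C (37°C replicate 1 and 25°C replicate 1). With library totals alone as the scale, the median over all genes at 37°C moved by −0.32 and 1 of the 9 genes was called.

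The calls at 37°C depended on single libraries and on those of low histone share. Leaving out 25°C replicate 2 or 3 or 37°C replicate 1 or 2 gave 0 calls among the 9 genes, leaving out 25°C replicate 1 gave 4, and leaving out 37°C replicate 3 gave 9. Without 37°C replicate 3 the libraries left at 37°C were both of low histone share. The numbers called among all genes in these fits are not given here, so these counts have no background beside them. Without the 5 libraries of low histone share 37°C was left with replicate 3 alone, 34°C with replicate 1 alone and 10°C with replicates 1 and 3, the spread of a lone library being assumed to be that of the other groups. At 37°C 0 of the 9 genes and 7 genes in all were then called. The log2 fold changes stayed above 0 and ranged from 1.96 (SE 1.62) for Mal-A8 to 4.04 (SE 0.87) for Amy-p, with adjusted p of 0.590 to 0.970. Summed Amy had a log2 fold change of 3.85 (SE 0.87, adjusted p = 0.636). At 10°C the corresponding values ran from 0.08 (Mal-A7) to 3.12 (Mal-A6) and at 34°C from −0.16 (Mal-A3) to 2.05 (Mal-A4), and 0 genes of the 9 were called.

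Set side by side irrespective of temperature, the 5 polyA+ libraries of low histone share had higher maltase levels than the other 10. Mal-A4 had a median of 67.3 CPM (47.0 to 286) in them, against 0.493 CPM (0 to 3.89) in the others, and Mal-A3 had 76.8 CPM (37.2 to 199), against 1.08 CPM (0.170 to 8.33). Mal-A1, Mal-A2 and Mal-A8 did not overlap between these libraries either, which made 5 of the 9 genes, where 7.73% of all genes tested were higher without overlap. Mal-A6 did overlap, with 47.3 CPM in the lowest library of low histone share and 54.6 CPM in the highest other. So did Mal-A7, with 9.26 and 10.5 CPM. Amylase overlapped: summed Amy had a median of 830 CPM (182 to 1282) in the libraries of low histone share, against 34.6 CPM (11.7 to 387) in the others, 2 of which were above the lowest of the 5. In the rRNA− libraries of the same pools 0 of the 9 genes stood apart, where the share of all genes that did was not counted. Mal-A4 had a median of 3.60 CPM (2.32 to 11.8) in the rRNA− libraries of these 5 pools, against 4.17 CPM (0.783 to 10.2) in those of the other 10 pools.

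The ratio of the rRNA− to the polyA+ level within a pool, from CPM of library totals, turned round with the histone share for the maltases. All 7 maltases were lower in the rRNA− than in the polyA+ library in 5 of 5 pools with a polyA+ library of low histone share and higher in 10 of 10 other pools. Of the 10103 genes tested, 1.57% had ratios on opposite sides of 1 in this way, and the 7 maltases were among them. The ratio had a median of 0.0571 (0.0453 to 0.0954) for Mal-A3 in these 5 pools, against 3.18 (1.18 to 10.2) in the other 10 pools. For Mal-A1 it was 0.483 (0.120 to 0.649), against 4.71 (2.75 to 9.52). For summed Amy it was 0.281 (0.255 to 1.64), against 3.52 (1.34 to 5.62), and the 2 pools at 34°C among the 5 had more Amy in the rRNA− library. How far temperature and histone share each account for these values was not tested. The 5 libraries are spread over 10°C, 34°C and 37°C and none is at 4°C or 25°C.

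**Figure D3:**
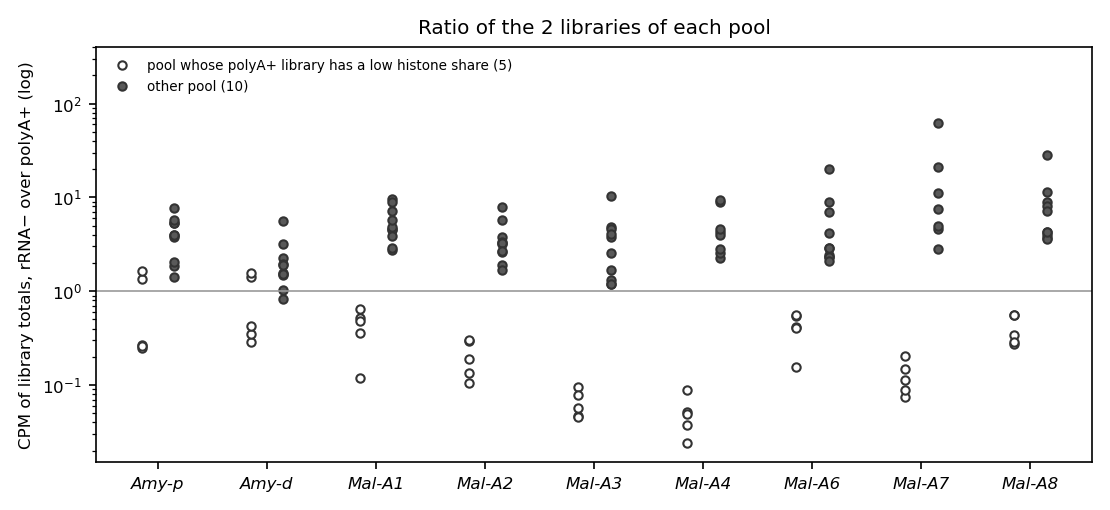
Ratio of the CPM of library totals in the rRNA− library to that in the polyA+ library of the same pool (log axis, line at 1) for each of the 9 genes, with open points left for the 5 pools whose polyA+ library had a low histone share and filled points right for the other 10 pools. The open and filled points are on opposite sides of the line for the 7 maltases, with the pools of 0 polyA+ counts (2 for Mal-A4 and 3 for Mal-A7) not drawn.

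The order of the replicates also differed between library types. In the rRNA− libraries at 10°C replicate 2 was the lowest of 3 for 9 of 9 genes, and in the polyA+ libraries at 10°C replicate 2 was the highest for 9 of 9. At 37°C replicate 3 was the highest for 8 of 9 genes in rRNA− libraries and the lowest for 9 of 9 in polyA+ libraries. At 25°C, where no polyA+ library had a low histone share, replicate 2 was the lowest for 9 of 9 genes in both types. At 4°C replicate 1 was the highest for 9 of 9 genes in rRNA− and for 7 of 9 in polyA+ libraries. In rRNA− libraries replicate 2 was also the lowest for 9 of 9 genes at 37°C and for 7 of 9 at 34°C. The share of all genes with these orders was not counted. Levels of the 9 genes were correlated, so these are not 9 separate observations.

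At 25°C the genes had more reads in the rRNA− than in the polyA+ libraries, and 4 of 9 were called higher in rRNA− libraries (22.7% of the 10103 genes tested were) and 0 lower (14.7%). Amy-p had 139, 65.4 and 128 CPM in rRNA− libraries, against 27.1, 7.46 and 22.3 CPM in polyA+ libraries (log2 fold change 2.21, SE 0.78, adjusted p = 0.0244). Mal-A8 had 20.1, 1.57 and 6.80 CPM in rRNA− libraries, against 2.33, 0.170 and 0.243 CPM in polyA+ libraries (log2 fold change 3.03, SE 1.21, adjusted p = 0.0453). Mal-A1 and Mal-A6 were the other calls, with log2 fold changes of 2.61 (SE 1.00, adjusted p = 0.0361) and 2.78 (SE 0.96, adjusted p = 0.0221). The lowest rRNA− library of Mal-A8, replicate 2, was below the highest polyA+ library, so that those groups overlapped across pools, whereas those of Amy-p did not. Within the 3 pools Mal-A8 was higher in each rRNA− library, with 101, 8 and 28 counts, against 11, 1 and 1 counts in the polyA+ libraries. The call of Mal-A8 was lost with full counts (log2 fold change 2.91, adjusted p = 0.0538) and without the pools of low histone share (3.02, adjusted p = 0.0781), where Mal-A4 was called instead (2.31, adjusted p = 0.0426). Summed Amy was called too, at a log2 fold change of 1.90 (SE 0.75, adjusted p = 0.0421), while Amy-d was not (log2 fold change 0.68, SE 0.68, adjusted p = 0.429), although its ratio of rRNA− to polyA+ level was 2.26, 1.95 and 1.91 in the 3 pools. With the pool as a block its adjusted p was 0.401 and the 4 calls among the 9 genes were the same. Leaving out replicate 1, 2 or 3 at 25°C gave 1, 1 and 0 calls among the 9 genes, with the numbers among all genes not given here.

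Whether the response to temperature differed between library types was tested as the fold change in rRNA− libraries minus that in polyA+ libraries. At 37°C all 9 differences were below 0, from −2.23 (SE 0.95) for Amy-d to −6.94 (SE 2.11) for Mal-A4 on the log2 scale, and all 9 had an unadjusted p under 0.05 (1543 of all 10103 genes did), but 0 were called (adjusted p 0.248 to 0.284), where 1 gene was lower (0.0099%) and 0% higher. For summed Amy the difference at 37°C was −3.69 (SE 1.05, adjusted p = 0.248). At 34°C the differences ran from −0.46 to −5.71 (6 of 9 with an unadjusted p under 0.05, and 325 of all genes), at 10°C they reached −5.00 (2 of 9, and 216 of all), and at 4°C they ran from −1.54 to 1.03 (0 of 9, and 93 of all). At these temperatures 0 of the 9 were called (0.0099% higher at 34°C and 0% otherwise among all genes). Without the 5 pools whose polyA+ library had a low histone share, the difference at 37°C was −1.81 for summed Amy (adjusted p = 1) and 0 genes of the 9 were called. Leaving out the pool of 37°C replicate 3 gave 4 genes called lower and a difference of −4.41 for summed Amy (adjusted p = 0.0385). Both pools then left at 37°C had a polyA+ library of low histone share. The number called among all genes in that fit is not given here, so the 4 calls have no background beside them.

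**Figure D4:**
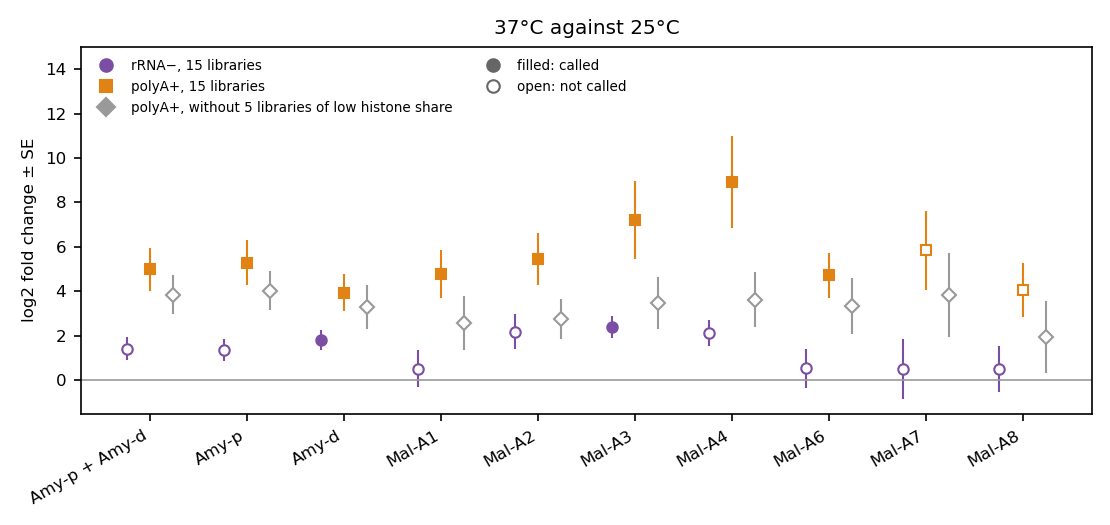
Log2 fold change of 37°C against 25°C with its standard error for summed Amy and the 9 genes, from the rRNA− libraries (circles), the polyA+ libraries (squares) and the polyA+ libraries without the 5 of low histone share (diamonds), filled where called. The polyA+ values run from 3.95 to 8.92, those without the 5 libraries from 1.96 to 4.04 with none called, and the rRNA− values from 0.50 to 2.39.

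Per kilobase of exon, Amy-p had the highest level of the 9 genes at every temperature in both library types. In the rRNA− libraries at 25°C it had 66.4 ± 23.8 CPM per kilobase (SD, n = 3 here and in the next values), followed by Mal-A1 with 25.8 ± 22.1, Mal-A6 with 14.7 ± 12.9 and Amy-d with 10.1 ± 3.69 CPM per kilobase. Mal-A8 (5.22 ± 5.26), Mal-A7 (3.30 ± 3.72), Mal-A2 (1.34 ± 0.939), Mal-A4 (1.08 ± 0.905) and Mal-A3 (0.978 ± 0.557) came last. Neighbours in this order below Amy-p differed by less than the larger of their SDs. The place of Amy-d also depends on whether equalized or full counts are used. Equalized counts of rRNA− libraries kept a median of 0.505 of the full Amy-d counts and 1 of those of Mal-A6. On full counts at 25°C Amy-d had 197, 94 and 150 counts over 1606 bases of exon, and Mal-A6 had 329, 35 and 119 over 2291. In the polyA+ libraries at 37°C Amy-p had 441 ± 239 CPM per kilobase and Mal-A4, the lowest but 1 of the 9 genes in the rRNA− libraries at 25°C, had 84.6 ± 79.3, next to 93.7 ± 63.9 for Mal-A1 and 75.8 ± 33.0 for Amy-d. In the polyA+ libraries at 25°C Mal-A4 was the lowest of the 9 at 0.170 ± 0.148 CPM per kilobase, against 11.4 ± 6.15 for Amy-p. At 37°C the share of full counts kept for Amy in polyA+ libraries was 0.495 to 0.598 of that for the summed maltases. The place of Amy-d there depends on the counts used too.

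The libraries of 1 temperature varied more in these genes than in most others. The biological coefficient of variation of the 9 genes in rRNA− libraries was 0.361 (Mal-A3) to 1.11 (Mal-A7), above that of 90.1% to 98.2% of the genes tested, whose median was 0.190. In polyA+ libraries it was 0.628 (Amy-d) to 1.28 (Mal-A7), above that of 77.6% to 98.3% of genes, whose median was 0.463. Among the rRNA− libraries Mal-A7 showed the widest spread within a group, with 96, 2 and 5 counts at 4°C, and it had 103, 7 and 21 at 25°C. Mal-A8, the next gene along the arm, had 121, 9 and 12 counts at 4°C and 101, 8 and 28 at 25°C, with the same replicate highest both times.

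Levels of the 9 genes were correlated across libraries. Over the 36 pairs of genes the median Pearson r of log2 CPM was 0.748 over the 15 rRNA− libraries (0.420 to 0.981) and 0.907 over the 15 polyA+ libraries (0.784 to 0.980), a description in which all genes share the same pools and libraries. With the mean of each temperature removed, the median r was 0.877 and 0.794. In rRNA− libraries the gene most like each was its copy for Amy-p and Amy-d (r = 0.981), and Mal-A1 paired with Mal-A6 (0.939), Mal-A3 with Mal-A4 (0.932) and Mal-A7 with Mal-A8 (0.957). Among 9709 other genes, those most like summed Amy over the 15 rRNA− libraries were CG31343 (r = 0.962), CG10116 (0.960), sphe (0.956), CG4053 (0.950) and CG8773 (0.947), whose r over the 15 polyA+ libraries was 0.899, 0.939, 0.954, 0.907 and 0.909.

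The 2 amylase copies took steady shares of the Amy counts in rRNA− libraries and, with reads of 85 bp, less steady ones in polyA+ libraries. Amy-p held a median of 85.1% (82.0% to 87.4%) in the 15 rRNA− libraries. It held 85.9% (83.6% to 88.1%) in the 5 polyA+ libraries of low histone share, against 73.4% (63.8% to 85.7%) in the other 10 polyA+ libraries, on full counts 85.2% (83.8% to 86.9%), against 76.6% (71.3% to 80.5%). At 25°C, polyA+ reads of 150 bp gave 251, 86 and 275 full counts of Amy-d, and reads of 85 bp 366, 123 and 414. Amy-p had 1202, 331 and 1089 full counts at 150 bp there, against 1248, 341 and 1046. In replicates 1 and 2 at 37°C, both of low histone share, Amy-d had 5484 and 3825 counts at 150 bp, against 5672 and 3582. The polyA+ shares thus depend on read length, and the part of read assignment in them was not tested. The equalized table also treated amylase unlike the maltases. In rRNA− libraries 0.998 to 1 of the full maltase counts but 0.402 to 0.571 of the full Amy counts were kept, and in polyA+ libraries the share kept for Amy was 0.495 to 0.792 of that for the summed maltases. With full counts the calls were those of the equalized counts at 37°C in both library types (2 and 7 genes), and Amy-d had a log2 fold change of 1.87 (SE 0.42, adjusted p = 0.0282) in rRNA− libraries.

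Of the 5 other α-amylase and α-glucosidase genes listed (Amyrel, Mal-A5, Mal-B1, Mal-B2 and tobi), 4 were tested in each library type and 0 were called against 25°C at any temperature, with median log2 fold changes at 37°C of −0.07 in rRNA− and 1.38 in polyA+ libraries. Mal-A5 (FBgn0050359, 8462753 to 8465092, plus strand), named here after its values were seen, lies between Mal-A4 and Mal-A6 in the cluster. Mal-A5 had 85.6 to 119 CPM per kilobase in the 15 rRNA− libraries, with log2 fold changes against 25°C of −0.07 to 0.10. In the 15 polyA+ libraries it ranged more widely, from 66.8 to 238 CPM per kilobase, with a log2 fold change at 37°C of 0.08 (SE 0.42, adjusted p = 0.912). Of the sugar transport and first sugar metabolism genes tested (6 in rRNA− and 7 in polyA+ libraries), 1 was called, the trehalose synthesis gene Tps1, higher at 37°C in polyA+ libraries (log2 fold change 1.93, SE 0.49, adjusted p = 0.0472).

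Of the regulators of the sugar response (8 tested in rRNA− and 9 in polyA+ libraries), daw fell by 1.63 on the log2 scale at 37°C (SE 0.23, adjusted p = 0.000648) and by 1.59 at 34°C (SE 0.23, adjusted p = 0.00144) in rRNA− libraries, and by 2.71 at 37°C in polyA+ libraries (SE 0.51, adjusted p = 0.0177). Thor, which encodes the translation inhibitor 4E-BP, was called lower at 37°C in rRNA− (−1.11, SE 0.19, adjusted p = 0.00383) and polyA+ libraries (−1.56, SE 0.37, adjusted p = 0.0384). ImpL2, an insulin-binding protein gene, was lower at 37°C (−1.06, SE 0.20, adjusted p = 0.00558) and 34°C (−1.16, SE 0.20, adjusted p = 0.00762) in rRNA− libraries. Of this list 0 were called at 4°C or 10°C in either library type. Mondo, bigmax and sug were not called against 25°C.

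Of 21 listed digestive genes of the midgut for proteases, lysozymes, mannosidases and a lipase, 18 were tested in rRNA− libraries, where 18 had a log2 fold change above 0 at 10°C, 34°C and 37°C and 2, 0 and 5 were called higher (0.875%, 0.679% and 2.06% of all genes tested). The lysosomal α-mannosidase gene LManVI had the largest log2 fold change of these calls, 4.70 at 37°C (SE 0.74, adjusted p = 0.00482) and 3.45 at 10°C (SE 0.74, adjusted p = 0.0233). In polyA+ libraries 10 of 20 were called higher at 37°C (3.76% of all genes tested) and 0 at the other temperatures. The log2 fold changes of the 20 at 37°C ran from 1.22 to 11.6. The trypsin gene thetaTry was among the calls at 4.50 (SE 0.89, adjusted p = 0.0235). Calls of this and the other lists in polyA+ libraries are not given without the libraries of low histone share, where 7 genes in all were called at 37°C. The median log2 fold change of this list at 37°C was 1.22 in rRNA− and 3.66 in polyA+ libraries, where that of the 9 genes was 1.36 and 5.28.

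Marker genes of the midgut, 8 of 8 detected and 3 of them shared with the list of digestive genes, varied alongside the 9. Their summed level was 561 to 2231 CPM at 4°C, 2585 to 3607 CPM at 10°C, 1758 to 2505 CPM at 34°C and 2502 to 3235 CPM at 37°C, against 909 to 2137 CPM at 25°C in rRNA− libraries. In polyA+ libraries it was 2184 to 6649 CPM at 37°C, against 322 to 1197 CPM at 25°C, and 1468 to 6649 CPM in the 5 libraries of low histone share, against 322 to 2215 CPM in the other 10. Muscle markers, 6 of 6 detected, had 14342 to 21497 CPM in the 5 polyA+ libraries of low histone share, against 1830 to 4205 CPM in the other 10, while the ranges for the rRNA− libraries of the same pools were 7092 to 9117 and 6562 to 11200 CPM. Ovary markers (8 of 9 matched) had 4953 to 21173 CPM in the 5 polyA+ libraries, against 10956 to 32046 CPM in the other 10. In rRNA− libraries ovary markers had 25258 to 29101 CPM at 4°C, 29659 to 37395 CPM at 10°C, 23198 to 23935 CPM at 34°C and 23981 to 27425 CPM at 37°C, against 20649 to 25427 CPM at 25°C, without overlap at 10°C. Nervous system markers had 303 to 379 CPM at 4°C, 256 to 364 CPM at 10°C, 310 to 441 CPM at 34°C and 321 to 379 CPM at 37°C, against 412 to 503 CPM at 25°C, without overlap at 4°C, 10°C and 37°C. In rRNA− libraries fat body markers had 2520 to 4303 CPM at 4°C, 3173 to 3497 at 10°C and 3566 to 7293 at 34°C. At 37°C they had 3251 to 3880 CPM, against 3687 to 4665 CPM at 25°C, so only 10°C was without overlap. In the 5 polyA+ libraries of low histone share they had 1480 to 2081 CPM, against 1012 to 1489 CPM in the other 10. Of the 6 male markers, Mst84Da and Mst98Ca were at 0 and the summed level of the list was at most 1.09 CPM in any library. The part of gut, muscle, ovary, nervous system or fat body content in the differences of the 9 genes was not tested.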

How the data were processed

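The authors deposited raw read counts per FlyBase gene, as an equalized table (ribosomal reads removed, polyA+ reads trimmed to 85 bp with Trimmomatic and reduced to the read number of the rRNA− partner library) and a full table. The submitters' processing notes name STAR 2.7.7a, SAMtools, Salmon 1.4.0, R 4.2.2, DESeq2 and the dm6 genome, and which program made the counts is not given in the sources used here. Read totals were 2067003 to 5541348 (rRNA−) and 2188773 to 5925256 (polyA+) equalized counts and 4241358 to 32104629 full counts.

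Equalized counts were fitted with edgeR 4.0.16 (quasi-likelihood, TMM, filterByExpr, robust) in R 4.3.3, in 1 fit of 5 temperatures per library type and 1 fit of all 30 libraries in 10 groups for library type at 25°C and for interactions. Calls needed a fold change of at least 2 and an adjusted p (Benjamini-Hochberg over all genes tested) under 0.05, interactions the adjusted p alone. The standard error was derived from the F statistic. Amy-p and Amy-d were also summed and refitted. The fit was also run on simulated data, with its outcome not given here. The simulation held no libraries of low histone share, so it cannot speak to calls that depend on them. No 2 replicates had identical counts. The rRNA− and polyA+ libraries of a pool were taken to come from the same flies, matched only by temperature and replicate number. Their deviations from the group means correlated at r = 0.208 to 0.445 at 4°C, −0.328 to 0.149 at 10°C and 0.252 to 0.491 at 25°C. At 34°C r was −0.0943 to 0.249 and at 37°C −0.181 to −0.102. Of the 15 pairs, 8 correlated best with their own number, so the values do not bear out the matching at every temperature. Pools are the replicates, and the labels do not say whether they came from separate cultures. Within a library type each pool has 1 library, so p-values measure the spread between libraries. That spread holds differences between pools and between library preparations, which cannot be told apart. The limits given for a count of 0 cover counting error only.

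All 9 genes are named, and genes of other lists only where called (at most 4 per list and comparison), except Mal-A5 and those named as not called. The 5 genes most alike to summed Amy were taken by Pearson r of log2 CPM (prior count 2) over the rRNA− libraries. The genes and lists were chosen with earlier results of these data known. The low-histone libraries are those under 0.01% histone counts. Alternatives were DESeq2 1.42.0, its size factors, library totals, no filter on low counts, full counts (also untrimmed reads of 150 bp), a replicate block (the replicate number within a library type, the pool in the fit of 30 libraries), fits of only the libraries compared, and leaving out single replicates or the low-histone libraries. Figures were drawn with matplotlib 3.10.9, and gene positions come from Ensembl release 115.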

Additional observations from a re-analysis of the deposited data

How the results depend on the processing

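Of the 9 genes, the number called changed most with the test and the libraries kept, and the causes were not tested. DESeq2 on rRNA− libraries called 3 at 10°C, 1 at 34°C and 4 at 37°C against 25°C, and on polyA+ libraries 7 at 10°C (summed Amy at 3.93, adjusted p = 0.00289), 5 at 34°C, 9 at 37°C and 1 at 10°C against 4°C, where edgeR called 0, 0 and 2, and 0, 0, 7 and 0. Without a filter on low counts 1 was called at 37°C in rRNA− and 5 in polyA+ libraries. With library totals 1 was called at 37°C in polyA+ libraries, and without the libraries of low histone share 0, with summed Amy at 3.85. Leaving out 1 replicate gave 0 to 2 calls at 10°C and 0 to 2 at 37°C in rRNA− libraries, 0 to 9 at 37°C in polyA+ libraries (summed Amy 4.59 to 5.34), 0 to 1 for library type at 25°C (summed Amy 1.83 to 1.96) and 0 to 4 for the interaction at 37°C (summed Amy −4.41 to −3.16). The numbers called among all genes in these fits, and with a block in rRNA− libraries, are not given here. In rRNA− libraries leaving out 1 replicate turned the sign of summed Amy at 4°C (−0.74 to 0.35) and at 37°C against 34°C (−0.23 to 0.32), and at 37°C that of Mal-A6 (−0.0109 to 1.46), Mal-A7 (−0.78 to 2.00) and Mal-A8 (−0.20 to 1.73). With the replicate number as a block, the rRNA− libraries gave 2 calls at 10°C and 4 at 37°C, where 0 and 2 were called without it, and the polyA+ libraries 5 at 37°C, where 7 were (summed Amy 1.47 and 4.77 at 37°C). In no comparison of temperatures did all 3 same-numbered pairs deviate together at r over 0.1 (−0.526 to 0.417), nor did every library correlate best with its own number, so the numbers were not taken to pair pools. Between the rRNA− and polyA+ libraries of the same pool, 9 of 15 pairs had r over 0.1 (−0.328 to 0.491), and with the pool as a block no call for library type at 25°C or for the interactions changed among the 9 genes. Over all genes, the calls at 37°C in polyA+ libraries numbered 363 with edgeR, 1601 with DESeq2, 90 with library totals, 577 with full counts, 223 with the block, 1421 in a fit of 6 libraries and 7 without the libraries of low histone share. In rRNA− libraries DESeq2 called 317 genes at 10°C and 216 at 34°C, where edgeR called 205 and 80. At 4 to 15 counts in all 25°C polyA+ libraries, the fitted fold changes of Mal-A2, Mal-A3, Mal-A4, Mal-A7 and Mal-A8 are limited by depth.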
